A study of Mus musculus with 16 samples.

Results

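Genes known from the brain's coverings, 10 in number, were followed in hippocampal RNA, array by array: *Ptgds*, *Slc47a1*, *Slc6a13*, *Slc6a12*, *Igfbp2*, *Dcn*, *Lum*, *Col1a1*, *Col1a2* and *Col3a1*. They are 10 of the 17871 genes with a probe on the arrays, and 16 probes carried them. The symbols were given by name, and every probe with the symbol or the same Entrez gene number was taken, so that *Slc47a1* was found under the older name 1300013J15Rik. *Ptgds*, *Slc47a1* and *Slc6a13* were listed because they are among the genes that vary most between mice of a group at postnatal day (P) 30, so the P30 spread of these genes is a description and no test of it was made.

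The meninges wrap the brain and follow the hippocampal fissure down to the hippocampus. Their fibroblasts make fibrillar collagens and the small proteoglycans that bind them, and the cells of the arachnoid and pia carry transporters that move organic cations, organic anions and GABA across the border between cerebrospinal fluid and brain. *Ptgds* encodes the lipocalin-type prostaglandin D synthase, which makes prostaglandin D2 and is secreted into the cerebrospinal fluid as a carrier of small lipophilic molecules. It is made by meningeal cells, by the choroid plexus and by oligodendrocytes, so its level in whole tissue does not belong to 1 cell type.

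The study compared *Mef2c*-het mice, which carry 1 conventional *Mef2c* allele with exon 2 deleted on the C57BL/6J background, with wild-type (WT) littermates. *Mef2c* encodes a transcription factor of neurons and muscle, and the deletion is in every cell of the animal. Total RNA of the whole hippocampus went onto MouseRef-8 v2 arrays from Illumina, in 4 groups of 4 arrays: WT and *Mef2c*-het at P1, the newborn, and at P30, the juvenile. Each array is taken here as 1 mouse, which the study's methods do not state. The labels call the *Mef2c*-het mice KO and give no sex, litter or chip.

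Each array reported 12638 to 14150 probes above the negative control beads (detection p under 0.05), from a median of 36 to 39 beads per probe. Arrays of the same age correlated at r from 0.9825 to 0.9967. They fell into 2 clusters at each age, with WT replicate 8 and *Mef2c*-het replicate 8 apart at P1, and WT replicates 6 and 7 and *Mef2c*-het replicate 7 apart at P30. These 5 arrays had the higher background: the signal at the 5th percentile of their probes was 140 to 161 at P1, against 109 to 131 on the other arrays of that age, and 144 to 158 at P30, against 106 to 125. No probe for *Mef2c* could be placed on or off the deleted exon from the sources used here, so its level does not check the labels. The *Mef2c* probe of highest signal read 8.97 to 9.92 on the log2 scale in *Mef2c*-het mice at P30 and 9.61 to 9.80 in WT mice, and the highest of these values was that of *Mef2c*-het replicate 7. Of 8 neuronal genes, *Camk2a*, *Slc17a7*, *Prox1*, *Wfs1* and *Gad1* were detected at P30 and *Neurod6* in newborns, and the probes of *Gad2* and *Snap25* were not detected on any array.

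*Slc6a13* and *Slc6a12* are neighbours on chromosome 6, with 4852 bases between the end of the one (chr6:121300288-121337721) and the start of the other (chr6:121342574-121365773), and they encode the GABA transporter GAT2 and the betaine and GABA transporter BGT1. *Igfbp2*, at chr1:72824480-72852474, encodes an insulin-like growth factor binding protein. The 120 bases before each gene's annotated start, from RefSeq on GRCm38.p6, are shown for the neighbours and for the member with the smallest p by age. Over the P30 arrays with group means removed, *Slc6a13* and *Slc6a12* had r = 0.85, which is a description. Their newborn r, given below, did not pass. All 3 stretches are on the plus strand, written 5′ to 3′, and capitals mark the letters GGGCGG, which GC-box binding factors recognize.
Slc6a13, chr6:121300168-121300287: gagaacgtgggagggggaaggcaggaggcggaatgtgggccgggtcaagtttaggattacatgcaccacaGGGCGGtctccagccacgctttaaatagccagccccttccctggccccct
Slc6a12, chr6:121342454-121342573: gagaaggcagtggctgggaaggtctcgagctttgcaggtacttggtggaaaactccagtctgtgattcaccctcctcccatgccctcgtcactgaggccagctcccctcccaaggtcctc
Igfbp2, chr1:72824360-72824479: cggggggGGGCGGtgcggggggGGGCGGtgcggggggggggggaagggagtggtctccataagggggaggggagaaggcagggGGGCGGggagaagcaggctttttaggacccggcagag

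Promoters were on hand for 6 of the 10 genes, 13 in all, and *Slc47a1*, *Dcn*, *Lum* and *Col1a1* had none. In the 250 bases before the start, GGGCGG on either strand was in 32.7% of all 32851 promoters, CCAAT in 33.8% and TATAAA in 12.4%. *Igfbp2*, *Slc6a13* and *Col1a2* had a promoter with GGGCGG, *Slc6a13* and *Col1a2* one with CCAAT, and *Col3a1* one with TATAAA. The MEF2 consensus was in 2.92% of all promoters and in 0 of these 13, which says only that these letters are not in this window.

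Levels below are log2 signals after quantile normalization of the 16 arrays together, where 1 unit is a doubling. A level is that of the gene's brightest detected probe and is compared only with the same probe on other arrays, because probes bind with different strength. In bulk tissue, fewer cells of a type and less RNA per cell cannot be told apart.

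*Ptgds* rose steeply between P1 and P30. In WT newborns it read 9.08, 9.99, 8.77 and 10.51 in replicates 1, 4, 5 and 8, and in *Mef2c*-het newborns 9.06, 9.27, 10.23 and 10.83 in replicates 1, 2, 4 and 8. At P30 the WT values were 11.47, 12.82, 11.77 and 11.15 in replicates 2, 3, 6 and 7, and the *Mef2c*-het values 12.06, 11.60, 13.04 and 12.39 in replicates 3, 5, 6 and 7. Every P30 array lay above every P1 array, while the genotypes overlapped at both ages. The rise was 2.22 ± 0.46 (SE) in WT, or 4.65-fold (limma, adjusted p = 0.000564), and 2.43 ± 0.46 in *Mef2c*-het, or 5.37-fold (limma, adjusted p = 0.00026).

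*Slc47a1* encodes MATE1, which exports organic cations in exchange for protons. It was near background in newborns, where the probe was detected on 1 of 4 WT and 2 of 4 *Mef2c*-het arrays at 7.07 to 7.51. At P30 it was detected on 3 of 4 WT arrays, reading 7.64, 9.08, 7.50 and 7.27 in replicates 2, 3, 6 and 7. The P30 *Mef2c*-het arrays, all 4 detected, read 8.11, 7.54, 9.12 and 9.20 in replicates 3, 5, 6 and 7. Single mice of both genotypes thus stood well above newborns, WT replicate 3 and *Mef2c*-het replicates 6 and 7, and the other P30 arrays lay between 7.27 and 8.11. The rise passed the test in *Mef2c*-het (1.20 ± 0.37, limma adjusted p = 0.00961) and not in WT (0.64 ± 0.37, adjusted p = 0.144), and the difference between these changes was not called (0.56 ± 0.52, adjusted p = 0.998). After background correction by normexp the *Mef2c*-het rise of *Slc47a1* was 2.51 and its WT change 1.46 (limma, adjusted p = 0.00609 and 0.0861), and without the 5 arrays of higher background the WT rise became 1.28 (limma, adjusted p = 0.0125). The other 3 *Slc47a1* probes were each detected on 3 or fewer of 16 arrays.

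The GABA transporter *Slc6a13* went the other way. Newborn WT arrays read 9.31, 9.68, 9.02 and 9.70 and newborn *Mef2c*-het arrays 9.48, 9.24, 9.49 and 9.67. At P30 the WT values were 8.72, 9.33, 8.61 and 8.79 and the *Mef2c*-het values 9.07, 8.48, 9.20 and 9.66, with replicates in the order given for *Ptgds*. The ages overlapped in both genotypes, and the arrays highest at P30 were WT replicate 3 and *Mef2c*-het replicate 7. *Slc6a13* fell by 0.56 on the log2 scale in WT (SE 0.22, limma adjusted p = 0.0348). The WT call was lost when WT replicate 4 or 8 at P1, or WT replicate 2, 6 or 7 at P30, was left out (limma, adjusted p from 0.0704 to 0.0988), and with no filter on dim probes or cyclic loess (limma, adjusted p = 0.0604 and 0.0596). Without the 5 arrays of higher background the WT change of *Slc6a13* was -0.31 (limma, adjusted p = 0.257). In *Mef2c*-het mice the change was -0.37 ± 0.22 and did not pass (limma, adjusted p = 0.162), though it did without *Mef2c*-het replicate 7 at P30 (-0.55, adjusted p = 0.0294) and without the 5 arrays of higher background (-0.50, adjusted p = 0.0464).

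*Slc6a12* gave 7.38, 7.34, 7.28 and 7.81 in WT newborns and 7.32, 7.44, 7.45 and 7.94 in *Mef2c*-het newborns. At P30 it gave 7.36, 8.08, 7.55 and 7.28 in WT and 7.50, 7.49, 8.01 and 8.30 in *Mef2c*-het mice. The ages overlapped, and the changes of 0.11 ± 0.20 in WT and 0.29 ± 0.20 in *Mef2c*-het did not pass (limma, adjusted p = 0.657 and 0.249), nor did the wider changes of 0.28 and 0.68 after normexp or the WT change of 0.41 without the 5 arrays of higher background (limma, adjusted p = 0.0807). The arrays that read highest at P30 were again WT replicate 3 and *Mef2c*-het replicates 6 and 7, and at P1 the replicates numbered 8 of both genotypes.

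*Igfbp2* fell by more than any other member in each genotype. Its newborn values were 10.72, 10.61, 10.59 and 10.79 in WT and 11.06, 10.75, 10.94 and 10.72 in *Mef2c*-het mice, and its P30 values 8.90, 9.27, 8.86 and 8.99 in WT and 8.96, 9.01, 9.44 and 9.44 in *Mef2c*-het mice. The ages did not come near each other. *Igfbp2* fell by 1.67 on the log2 scale in WT (SE 0.12, limma adjusted p = 4.84e-09), to 0.314 of its newborn signal, and by 1.65 in *Mef2c*-het (SE 0.12, limma adjusted p = 6.16e-09). A further *Igfbp2* probe gave -1.85 and -1.78.

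Decorin (*Dcn*) and lumican (*Lum*) are small leucine-rich proteoglycans that coat collagen fibrils, and their genes lie side by side on chromosome 10 (chr10:97479500-97518163 and chr10:97565501-97572703). *Dcn* read 10.40, 10.83, 10.46 and 10.42 in WT newborns and 11.02, 10.32, 10.69 and 10.51 in *Mef2c*-het newborns. At P30 it read 11.49, 11.83, 11.27 and 11.10 in WT and 11.69, 11.57, 11.84 and 11.74 in *Mef2c*-het mice, above every newborn. It rose by 0.89 ± 0.16 in WT (limma, adjusted p = 0.000117) and by 1.08 ± 0.16 in *Mef2c*-het (limma, adjusted p = 1.75e-05). The dimmer *Dcn* probe differed from this in WT, where its change of 0.43 ± 0.28 did not pass (limma, adjusted p = 0.208), with 8.72 and 8.64 in WT replicates 6 and 7 against 9.81 and 9.96 in replicates 2 and 3, and it rose by 0.92 ± 0.28 in *Mef2c*-het (limma, adjusted p = 0.0106).

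*Lum* stayed between 7.82 and 8.64 on all 16 arrays. Its newborn values were 7.99, 8.03, 8.01 and 8.07 in WT and 8.64, 7.82, 8.17 and 8.14 in *Mef2c*-het mice, and its P30 values were 7.96, 8.16, 8.02 and 8.04 in WT and 7.88, 7.88, 7.88 and 8.10 in *Mef2c*-het mice. The highest and the lowest of all arrays were both *Mef2c*-het newborns, replicates 1 and 2. The change with age was 0.02 ± 0.12 in WT (limma, adjusted p = 0.897), and it took the opposite sign, -0.04, after scaling to a common median. In *Mef2c*-het it was -0.26 ± 0.12 (limma, adjusted p = 0.0786), which passed without *Mef2c*-het replicate 2 at P1 (-0.38, adjusted p = 0.00563) or replicate 7 at P30 (-0.31, adjusted p = 0.0473).

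The fibrillar collagens were dim in this tissue. *Col1a1*, one chain of type I collagen, read 7.62, 7.85, 7.66 and 7.93 in WT newborns and 8.09, 7.57, 7.83 and 7.78 in *Mef2c*-het newborns, against 7.52, 7.79, 7.54 and 7.41 in WT and 7.41, 7.43, 7.33 and 7.53 in *Mef2c*-het mice at P30. The *Mef2c*-het ages did not overlap and the WT ages did. *Col1a1* fell by 0.39 on the log2 scale in *Mef2c*-het (SE 0.11, limma adjusted p = 0.0042), a fall that normexp background correction widened to -1.02. In WT the change of -0.20 ± 0.11 did not pass (limma, adjusted p = 0.115), though it did without WT replicate 3 at P30 (-0.27, adjusted p = 0.0384).

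*Col3a1*, the chain of type III collagen, was read above background on 2 of 4 WT and 3 of 4 *Mef2c*-het newborn arrays and not well above background on any P30 array. Newborn values were 7.30, 7.83, 7.86 and 7.16 in WT and 8.02, 7.52, 7.73 and 7.20 in *Mef2c*-het mice, and P30 values ran from 6.97 to 7.28. *Col3a1* was at least 1.16-fold lower at P30 in WT and at least 1.22-fold lower in *Mef2c*-het. The bound sets the mean of all newborn arrays of a genotype, on the log2 scale, against the lowest signal among probes above background on each P30 array, or the probe's own where that is higher. The fitted changes were -0.46 in WT and -0.52 in *Mef2c*-het (limma, adjusted p = 0.0263 and 0.0143), and -1.23 and -1.41 after normexp background correction. These fits use undetected P30 values, and the probe passed the filter on dim probes through newborn arrays alone. The ages overlapped in both genotypes, and exact permutation of the arrays, two-sided, gave p = 0.0857 in WT and 0.0571 in *Mef2c*-het. The WT call was lost without WT replicate 4 or 5 at P1 or WT replicate 6 or 7 at P30 (limma, adjusted p from 0.0633 to 0.0932), and the *Mef2c*-het call without *Mef2c*-het replicate 1 at P1 (-0.38, adjusted p = 0.0585). The dimmer *Col3a1* probe was detected on 1 *Mef2c*-het newborn array and no other, so it was not tested. Its means differed with age by -0.17 in WT and -0.21 in *Mef2c*-het. *Col1a2*, the partner chain of type I collagen, was detected on 4 of 16 arrays, between 7.07 and 7.39 on all of them, and its changes of -0.09 in WT and -0.10 in *Mef2c*-het did not pass (limma, adjusted p = 0.314 and 0.255).

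**Figure D1:**
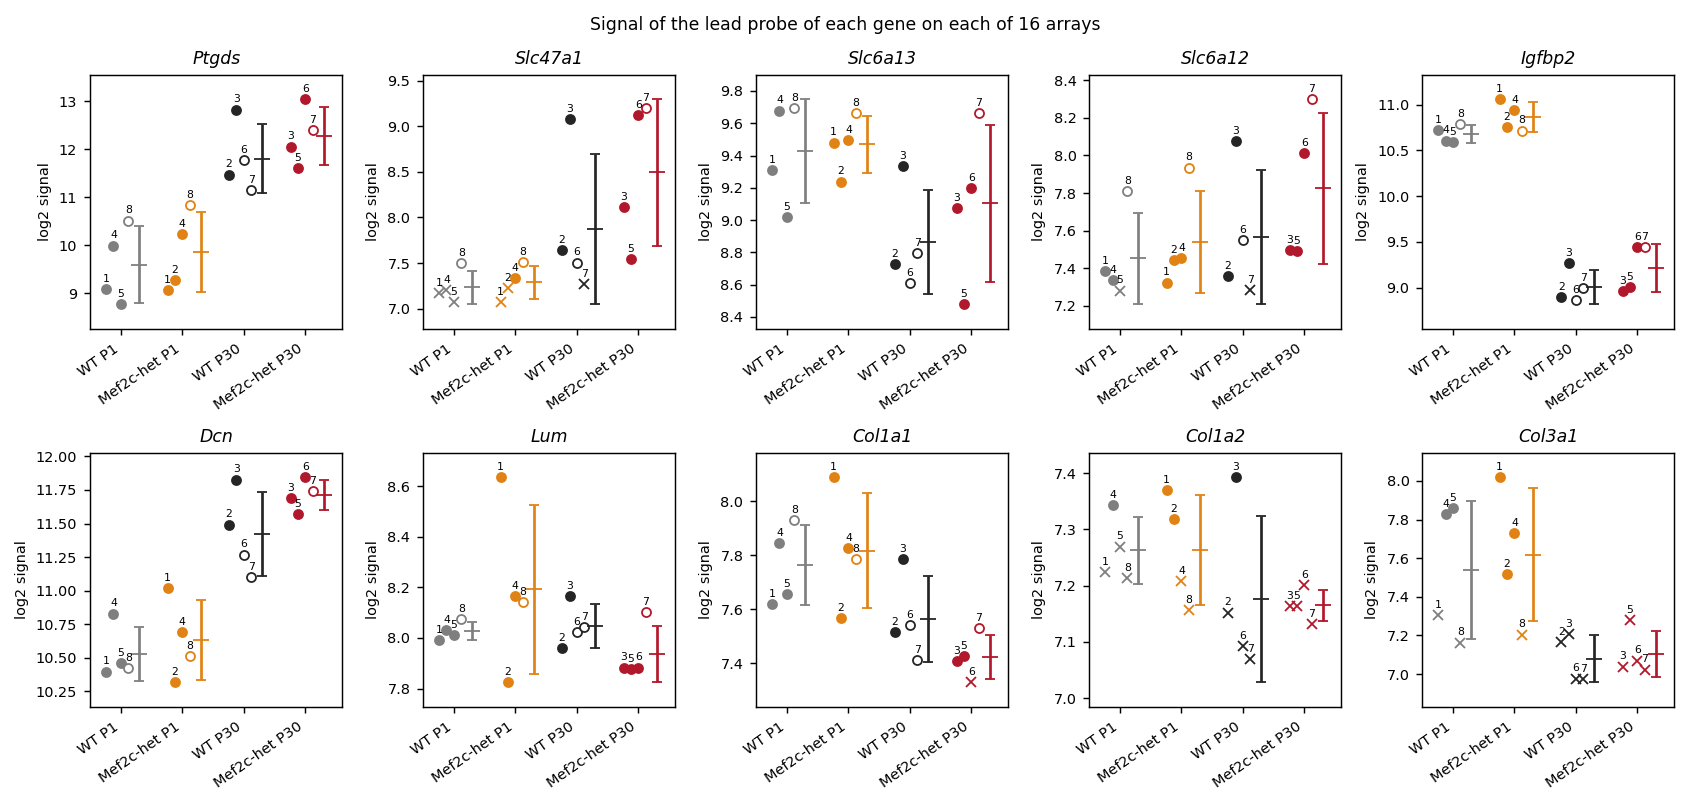
Normalized log2 signal of the lead probe of each gene (y axis) in the 4 groups (x axis). Each point is 1 array with its replicate number, open circles are detected values on the 5 arrays of higher background, crosses are values with a detection p of 0.05 or more, and bars give the mean ± SD (n = 4). *Ptgds* and *Dcn* lie higher and *Igfbp2* lower on every P30 array than on any P1 array, and *Col3a1* is a cross on all 8 P30 arrays.

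By age, 5 of the 10 members passed in WT, with *Ptgds* and *Dcn* higher and *Igfbp2*, *Slc6a13* and *Col3a1* lower at P30. Of all 14777 probes tested, 59.7% passed in WT, 28% higher and 31.7% lower. In *Mef2c*-het mice 6 of 10 passed, with *Ptgds*, *Slc47a1* and *Dcn* higher and *Igfbp2*, *Col1a1* and *Col3a1* lower, against 58.3% of all probes, 26.9% higher and 31.4% lower. The members' share was thus near that of all probes. *Col3a1* passed the filter on dim probes through newborn arrays alone and was not detected at P30, so the filter favoured a fall. The members' median change was -0.03 in WT and -0.18 in *Mef2c*-het, and that of all probes -0.03 and -0.02. *Slc47a1* and *Col1a1* passed in *Mef2c*-het alone and *Slc6a13* in WT alone, and the test of the difference called none of the 10 (limma, genotype by age, adjusted p of 0.998 or more; 0 with an unadjusted p under 0.05, against 2.96% of all probes).

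**Figure D2:**
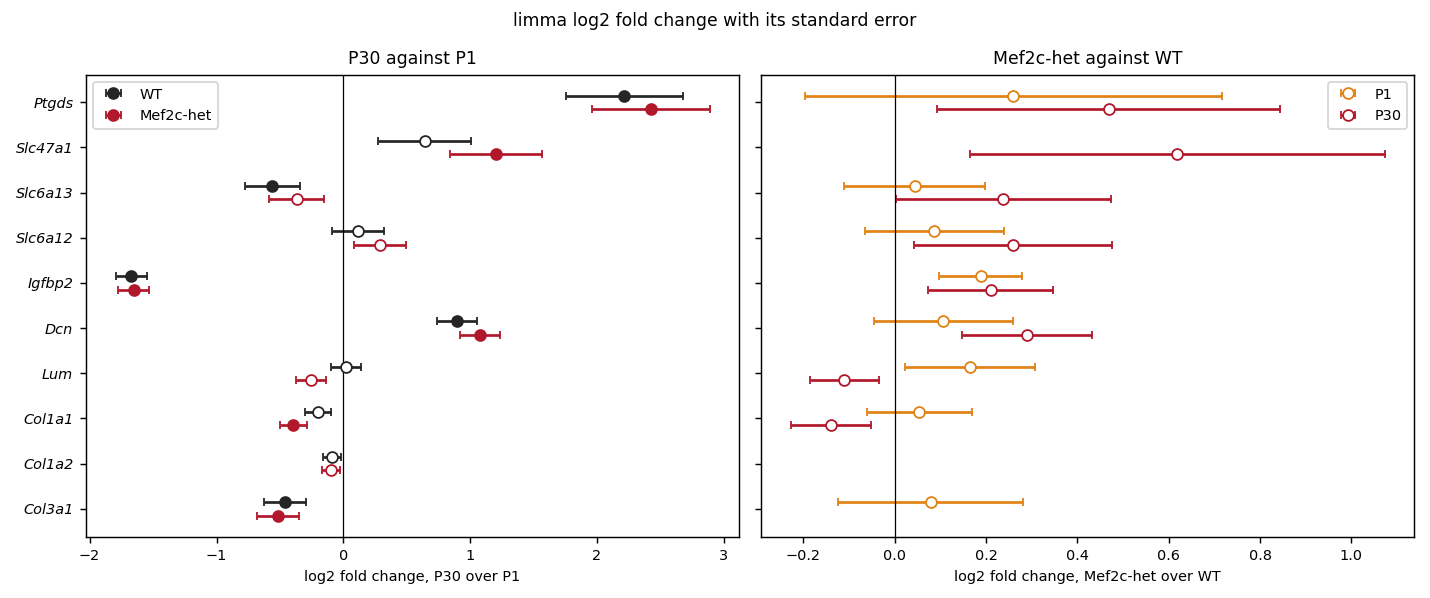
Log2 fold change of each gene's lead probe with its standard error from limma (x axis), for P30 over P1 in each genotype (left) and for *Mef2c*-het over WT at each age (right). Filled points have an adjusted p under 0.05 and open points do not, and a gene missing on the right was detected on too few arrays of that age to be tested. On the left *Ptgds* rises by 2.22 and 2.43 and *Igfbp2* falls by 1.67 and 1.65, and on the right no point is filled.

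Genotype was compared within each age, where the question was whether 1 lost *Mef2c* allele goes with another level of these genes. At P30 8 members could be tested and none was called, with or without adjustment (limma, adjusted p of 0.976 for all 8), against 0.00746% of all 13413 probes with and 2.39% without adjustment. *Slc47a1* was 0.62 ± 0.45 higher and *Ptgds* 0.47 ± 0.38 higher in *Mef2c*-het mice. The SD between mice of 1 group was 0.80 to 0.82 for *Slc47a1* and 0.61 to 0.72 for *Ptgds*. Both genes were listed for this wide P30 spread, which also widens the SE, so a missing call does not show equal levels. *Dcn* was 0.29 ± 0.14, *Slc6a12* 0.26 ± 0.22, *Slc6a13* 0.24 ± 0.24 and *Igfbp2* 0.21 ± 0.14 higher, and *Lum* (-0.11 ± 0.08) and *Col1a1* (-0.14 ± 0.09) lower. In all 8 the genotypes overlapped, against 1.75% of all probes that did not overlap. An exact permutation of the 8 arrays, two-sided, gave p from 0.171 to 0.4, where 0.0286 is the smallest possible. The median of the 8 was 0.25, and that of all probes -0.01.

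These P30 differences rested on few mice. Without the 3 P30 arrays of higher background *Ptgds* was 0.087, *Igfbp2* 0.057 and *Dcn* 0.041 higher in *Mef2c*-het mice, and *Slc47a1* (-0.11), *Slc6a13* (-0.11), *Slc6a12* (-0.051), *Lum* (-0.19) and *Col1a1* (-0.29) were lower. After normexp background correction the differences of *Slc47a1* (1.22), *Slc6a12* (0.65), *Lum* (-0.22) and *Col1a1* (-0.41) were wider, and none passed (limma, adjusted p of 0.978 for all 4). Leaving out *Mef2c*-het replicate 7 alone took *Slc6a13* from 0.24 to 0.05 and *Slc47a1* to 0.39, and leaving out WT replicate 3 raised *Slc47a1* to 1.02 and *Ptgds* to 0.81.

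At P1 the lead probes of the 8 members tested were all higher in *Mef2c*-het mice, by 0.04 to 0.26, and none passed (limma, adjusted p of 1; 0 with an unadjusted p under 0.05, against 0% of all 13566 probes with and 1.67% without adjustment). Their median was 0.10, and that of all probes 0.00. *Ptgds* was 0.26 ± 0.46, *Igfbp2* 0.19 ± 0.09, *Lum* 0.17 ± 0.14, *Dcn* 0.11 ± 0.15 and *Slc6a13* 0.04 ± 0.15 higher. The dimmer probes of *Dcn* (-0.049 ± 0.21) and *Igfbp2* (-0.0044 ± 0.12) were lower. The groups overlapped for all 8, against 1.29% of all probes that did not overlap, and exact permutation p ran from 0.143 to 0.857. Leaving out *Mef2c*-het replicate 1 turned the sign of *Dcn*, *Col1a1* and *Col3a1*, and leaving out *Mef2c*-het replicate 8 that of *Ptgds*, *Slc6a13* and *Slc6a12*. Without WT replicate 5 *Ptgds* and *Slc6a13* turned, and without WT replicate 8 *Col3a1* did.

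The spread between mice of a group differed among the members. At P30, where it was used to choose 3 of the members, the SD pooled over both genotypes was 0.81 for *Slc47a1*, 54th of 13413 probes, 0.67 for *Ptgds*, 141st, and 0.41 for *Slc6a13*, 486th. *Slc6a12*, which the choice did not use, had 0.38 and was 568th, followed by *Dcn* at 0.24 and *Igfbp2* at 0.23. *Col1a1* with 0.13 and *Lum* with 0.10 lay near the median of all probes, 0.12. In newborns, which the choice did not use, *Ptgds* had an SD of 0.82 and was 32nd of 13566 probes, with a median of all probes of 0.13. *Col3a1* followed with 0.35 and was 636th, then *Slc6a13* and *Slc6a12* with 0.26 each, *Dcn* with 0.26, *Lum* with 0.24, *Col1a1* with 0.18 and *Igfbp2* with 0.13.

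A few mice stood out for several members at P30. Expressed as a deviation from the group mean, WT replicate 3 was at 1.02 for *Ptgds*, 1.21 for *Slc47a1*, 0.47 for *Slc6a13*, 0.51 for *Slc6a12*, 0.26 for *Igfbp2* and 0.41 for *Dcn*. *Mef2c*-het replicate 6 was at 0.77 for *Ptgds* and 0.63 for *Slc47a1*, and replicate 7 at 0.70 for *Slc47a1*, 0.56 for *Slc6a13* and 0.12 for *Ptgds*. *Mef2c*-het replicate 6 was near its group mean for *Slc6a13* (0.09) and slightly below it for *Lum* (-0.05), *Col1a1* (-0.09) and the undetected *Col3a1* (-0.03). *Mef2c*-het replicate 5 was lowest of the *Mef2c*-het arrays for *Ptgds* (-0.67), *Slc47a1* (-0.95), *Slc6a13* (-0.62) and *Dcn* (-0.14). It was also lowest for *Slc6a12* (-0.34) and *Lum* (-0.06), where replicate 3 was close (-0.33 and -0.05). It was highest of them for *Col3a1* (0.18), which was not detected. Averaged over *Ptgds*, *Slc47a1* and *Slc6a13*, the deviation was lowest in *Mef2c*-het replicate 5 (-0.75) and WT replicate 7 (-0.44). It was highest in WT replicate 3 (0.90), then in *Mef2c*-het replicates 6 (0.50) and 7 (0.46).

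**Figure D3:**
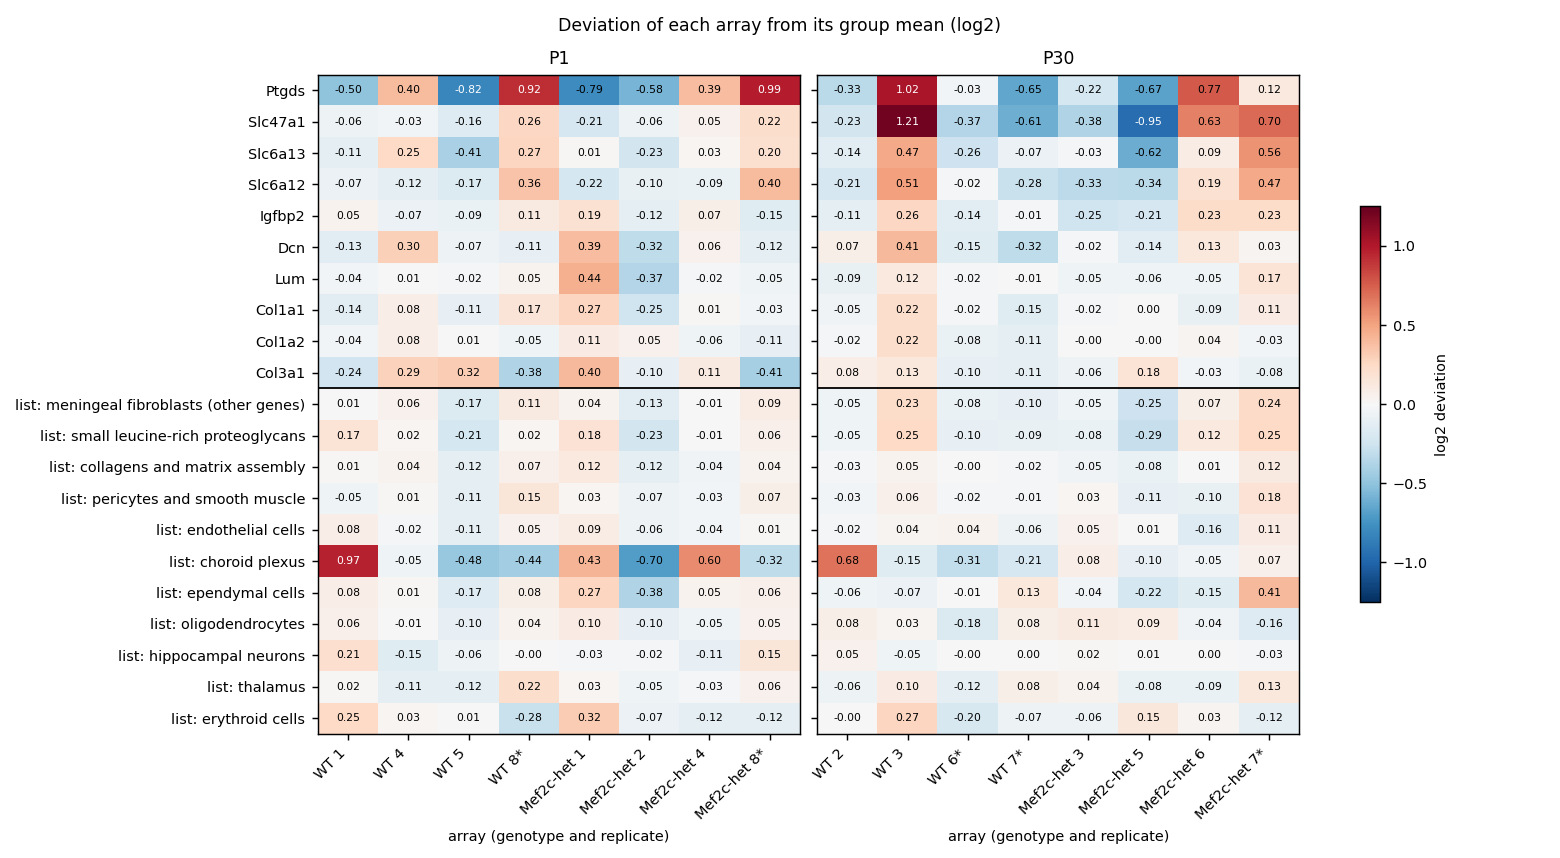
Log2 deviation of each array from the mean of its group (colour and number) at P1 (left) and P30 (right), with arrays in columns and asterisks on the 5 arrays of higher background. The upper rows are the 10 genes and the lower rows are means over the tested genes of marker lists. At P30 WT 3 is high and *Mef2c*-het 5 is low for *Ptgds*, *Slc47a1* and *Slc6a13*. *Mef2c*-het 6 is high for *Ptgds* and *Slc47a1* and near its group mean for *Slc6a13* (0.09). *Mef2c*-het 7 is high for *Slc47a1* and *Slc6a13* and nearer its group mean for *Ptgds* (0.12). The choroid plexus list is high on WT 2 instead.

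Pairs of members varied together at P30, which is a description because 3 of them were chosen by this spread. Over the 8 arrays with group means removed, Pearson's r was above 0 for all 28 pairs of the 8 members tested, with a median of 0.73 and a range from 0.38 for *Dcn* with *Lum* to 0.94 for *Slc47a1* with *Slc6a12*. The 6 pairs among *Ptgds*, *Slc47a1*, *Slc6a13* and *Slc6a12* ranged from 0.69 to 0.94. All 28 were also above 0 on the 5 arrays of the larger cluster. Without the 2 arrays farthest from the median of a pair's first gene, in the order listed at the start, those 6 pairs ranged from 0.68 to 0.87. In that setting *Col1a1* fell below 0 with *Igfbp2* (-0.76), *Lum* (-0.43), *Slc47a1* (-0.41), *Dcn* (-0.33) and *Slc6a12* (-0.26). *Lum* did so with *Slc47a1* (-0.16) and *Dcn* (-0.0048), and every other pair stayed above 0. All pairs share the same 8 arrays, so they are not independent of each other.

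In newborns, which the choice of members did not use, the pairs were tested by exact permutation of the arrays within groups, two-sided, with adjustment over 28 pairs. *Ptgds* varied with *Slc6a13* (r = 0.84, Spearman's rho 0.86, exact p = 0.0226, adjusted p = 0.158) and with *Slc6a12* (r = 0.83, rho 0.81, exact p = 0.0139, adjusted p = 0.13), which did not pass after adjustment. On the 6 arrays without the 2 replicates numbered 8, these r were 0.75 and 0.51, and the same 2 arrays are the farthest from the median of *Ptgds*. The neighbours *Slc6a13* and *Slc6a12* had r = 0.60 (exact p = 0.101, adjusted p = 0.282), and 0.13 on those 6 arrays. *Lum* with *Col1a1* was the pair that passed (r = 0.87, rho 0.88, exact p = 0.00174, adjusted p = 0.0486), where 0.00174 is the smallest p the 576 permutations allow. Its r was 0.94 without the 2 arrays farthest from the median of *Lum* and 0.92 on the larger cluster, where after adjustment no pair passed and 6 arrays cannot give a p under 0.0278. *Slc6a12* and *Col3a1* went in opposite directions (r = -0.85, rho -0.98, exact p = 0.00521, adjusted p = 0.0729, and r = -0.84 on the larger cluster). *Col3a1* was below detection on both arrays of higher background, on which *Slc6a12* was highest. In all, 19 of 28 newborn pairs were above 0 and 5 had an unadjusted p under 0.05.

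**Figure D4:**
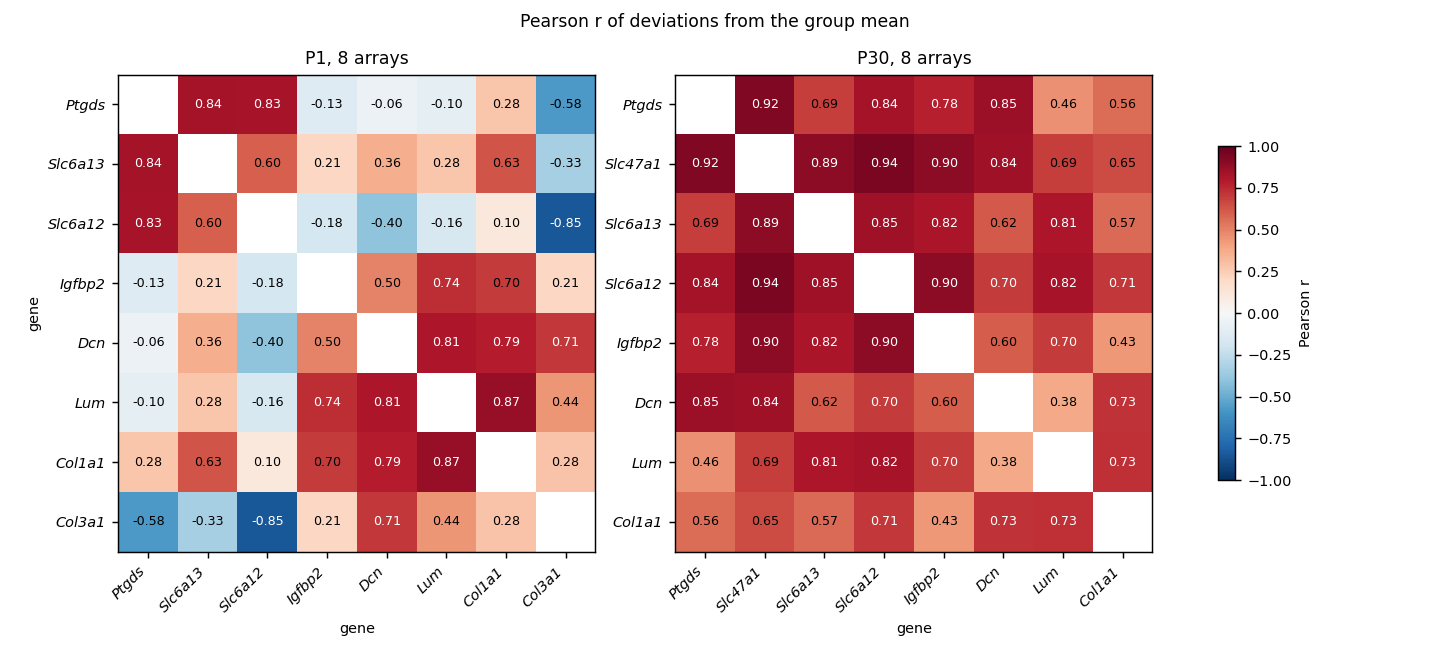
Pearson's r between the deviations of pairs of genes from their group means over the 8 arrays of each age (colour and number), with the same genes on both axes. Every pair is above 0 at P30. At P1 the pairs among *Ptgds*, *Slc6a13* and *Slc6a12* are at 0.60 to 0.84 and those among *Dcn*, *Lum* and *Col1a1* at 0.79 to 0.87. These are not separate blocks, with *Slc6a13* and *Col1a1* at 0.63. *Igfbp2* is at 0.74 with *Lum* and 0.70 with *Col1a1*, *Dcn* at 0.71 with *Col3a1*, and *Slc6a12* at -0.85 with *Col3a1*.

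Other genes known from meningeal fibroblasts were high and low on the same P30 mice. The list held 24 genes, chosen like all lists here with earlier results of these data known, of which 19 could be tested by age and 4 were not detected on any array, the transcription factors *Foxc2*, *Foxd1* and *Tbx18* and the cation transporter *Slc22a2*. Over the 8 P30 arrays the list's mean deviation had r = 0.95 with that of *Ptgds*, *Slc47a1* and *Slc6a13*, and 14 of its 19 genes lay above 0.56, which 5% of all 14774 probes exceed. The same r was 0.78 at P1, and 0.62 on the 6 arrays of the larger cluster there, with 4 of 19 genes above the matching 0.78. In newborns this likeness was not particular to the list. Pericyte and smooth muscle genes had r = 0.81 at P1 and astrocyte genes 0.66, and 0.52 and 0.27 on the same 6 arrays. The remaining lists of other cells ran from -0.67 for erythroid to 0.58 for thalamic genes at P1. Osteoglycin (*Ogn*), a small proteoglycan, was closest at P30 (r = 0.99), reading 8.43, 9.20, 8.34 and 8.02 in WT and 8.54, 8.06, 9.23 and 9.04 in *Mef2c*-het mice, highest on WT replicate 3 and *Mef2c*-het replicates 6 and 7. These r describe the arrays and carry no p, since the points share libraries. At P30 they also rest on genes listed for their spread at that age, so the 14 of 19 is a description and no test.

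With age this list moved in both directions. In WT 4 of its 19 genes rose, 5 fell and 10 did not pass, and in *Mef2c*-het 5 rose and 4 fell. Matrix Gla protein (*Mgp*), an inhibitor of calcification, rose by 2.41 ± 0.28 in WT (limma, adjusted p = 1.13e-06), and connexin 26 (*Gjb2*), a gap junction channel of meningeal cells, by 0.84 ± 0.17 (limma, adjusted p = 0.000469). Biglycan (*Bgn*) fell by 1.00 on the log2 scale (SE 0.14, limma adjusted p = 1.24e-05) and insulin-like growth factor 2 (*Igf2*) by 0.85 (SE 0.17, limma adjusted p = 0.00033). The list's median change was 0.01 in WT, beside -0.03 over all probes. By genotype none of 18 was called at either age, with 15 of 18 higher in *Mef2c*-het mice at P30 and a median of 0.11, beside -0.01 over all probes. These genes varied together on the same P30 arrays, so the 15 of 18 are not independent of each other.

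**Figure D5:**
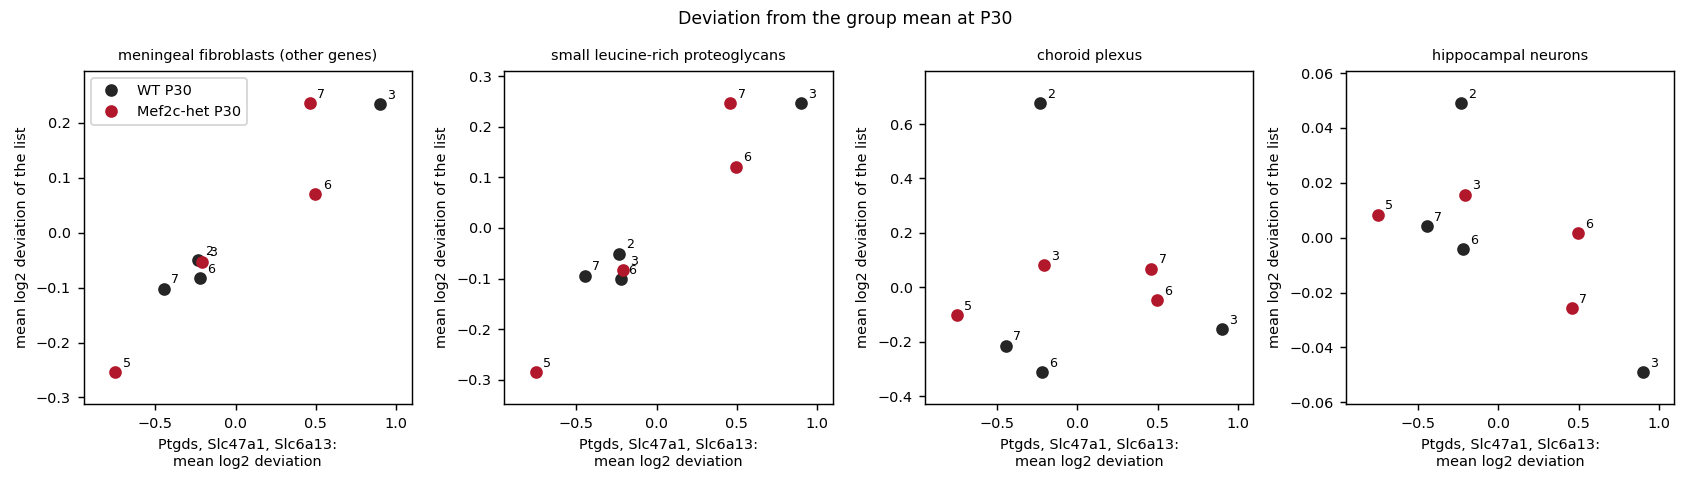
Mean log2 deviation of 4 marker lists from their group means (y axes) against that of *Ptgds*, *Slc47a1* and *Slc6a13* (x axis) on the 8 arrays at P30, each point labelled with its replicate number. The other meningeal fibroblast genes and the small leucine-rich proteoglycans climb from *Mef2c*-het 5 to WT 3 (r = 0.95 and 0.96, with *Ogn*, *Bgn* and *Fmod* in both lists), and the choroid plexus list does not (r = -0.05), with WT 2 alone at 0.68. Of the 14 choroid plexus genes averaged, 9 were detected on enough P30 arrays to be tested at that age.

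Marker lists of other cells, among them those that also make *Ptgds*, had r between -0.69 and 0.51 with the 3 genes over the 8 arrays at P30. The choroid plexus list had r = -0.05 over the 14 genes tested by age, of which 9 could be tested at P30. The others were detected on too few P30 arrays for that test, so this r rests partly on undetected values. The list's summed signal was 29089 on WT replicate 2 against 4586 on the lowest WT array and 5901 to 8941 on *Mef2c*-het arrays. *Ttr*, the defining product of the choroid plexus, read 14.35 on WT replicate 2 and 8.97 to 11.91 on the other P30 arrays. Oligodendrocyte genes had r = -0.37, with summed signals of 106010 to 118857 in WT and 102782 to 117844 in *Mef2c*-het mice at P30, and at P1 of 3658 to 5210 over both genotypes. They rose with age for 12 of 13 genes tested in each genotype, with a median of 4.34 in WT, beside the rise of *Ptgds*. Endothelial genes had r = 0.03, pericyte and smooth muscle genes 0.51, ependymal genes 0.23, thalamic genes 0.44, astrocyte and microglial genes 0.01 each, erythroid genes 0.31 and hippocampal neuron genes -0.69, the last over a range of only -0.05 to 0.05. Without WT replicate 3 and *Mef2c*-het replicate 6, the 2 arrays farthest from the median of the 3 genes, r became 0.96 for pericytes, 0.86 for ependymal cells, 0.73 for endothelial cells, 0.59 for astrocytes and for the thalamus, 0.20 for the choroid plexus, -0.46 for neurons, -0.52 for microglia, -0.63 for erythroid cells and -0.64 for oligodendrocytes. For the other meningeal genes it was 0.99 in that setting. On the 5 arrays of the larger cluster r was 0.99 for the other meningeal genes, 0.37 for pericytes, -0.41 for endothelial cells, -0.62 for the choroid plexus and -0.77 for oligodendrocytes. The part of dissection or of any cell type in the spread of the members was not tested.

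Genes that work with the members were counted by age. Among 22 tested genes of other collagens and matrix assembly, 4 rose and 12 fell in WT, led by the rise of the collagen prolyl hydroxylase subunit *P4ha1* (0.80, limma adjusted p = 6.6e-08) and of *Col6a1* (0.57, adjusted p = 0.00307) and by the falls of fibulin 2 (*Fbln2*, -1.91, adjusted p = 4.87e-11) and the membrane metalloprotease *Mmp14* (-1.40, adjusted p = 4.89e-08). The same list had 4 rises and 12 falls in *Mef2c*-het. Its median was -0.26 in WT and -0.28 in *Mef2c*-het, beside -0.03 and -0.02 over all probes. Of 5 tested small leucine-rich proteoglycans other than *Dcn* and *Lum*, *Bgn* and *Podn* fell in WT and none rose, and 3 of the 5 (*Bgn*, *Fmod* and *Ogn*) are also in the list of other meningeal genes.

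Among related transporters of the SLC6 family, 4 of 7 tested rose and 2 fell in both genotypes. The creatine transporter *Slc6a8* rose by 1.04 (limma, adjusted p = 2.97e-09) and the neuronal amino acid transporter *Slc6a17* by 1.40 (adjusted p = 8.71e-10) in WT, while *Slc6a15* (-0.59, adjusted p = 0.00282) and the taurine transporter *Slc6a6* (-0.45, adjusted p = 0.00111) fell. Of 8 organic ion transporters 4 were not detected on any array, and of 4 tested *Slc22a4* rose by 0.39 (limma, adjusted p = 5.63e-05) and *Slc22a5* (-0.46, adjusted p = 0.000465) and *Slc22a8* (-0.32, adjusted p = 0.00395) fell in WT. In the prostaglandin D2 pathway 3 of 7 genes could be tested, and *Hpgds*, the other prostaglandin D synthase, fell by 0.26 on the log2 scale in WT (SE 0.06, limma adjusted p = 0.00199), where *Ptgds* rose. Of 10 tested insulin-like growth factor genes 1 rose and 5 fell in each genotype, with *Igfbp6* up by 1.04 (limma, adjusted p = 3.7e-07) and *Igfbp7* (-1.05, adjusted p = 0.00131) and *Igf2* down in WT.

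No gene of these lists passed the adjusted threshold for genotype at either age. Without adjustment the following had p under 0.05 in limma, and none of them is a member. At P30 the complement genes *C1qa* and *C1qb* were each 0.26 higher and the endothelial *Vwf* 0.25 lower in *Mef2c*-het mice (limma, adjusted p of 0.976 each). At P1 *Slc6a6* was 0.22 and the carnitine transporter *Slc22a5* 0.23 higher and the microglial receptor *Trem2* 0.40 lower (limma, adjusted p of 1 each).

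Over all 16 arrays with group means removed, the 10 probes most like the mean of *Ptgds*, *Slc47a1* and *Slc6a13* were led by the organic anion transporter *Slc22a6* (r = 0.94), *Nupr1* (0.92), *Fxyd5* (0.92), *Tmsb10* (0.91), the member *Slc6a12* (0.90) and *Mgp* (0.89). The others were *Car13*, *Slc13a3*, *Emp3* and *Smoc1*, from 0.83 to 0.88, where the median of 14774 probes was 0.04 and 5% exceeded 0.47. *Slc22a6* followed the 3 genes at each age, with r = 0.95 at P30 and 0.93 at P1, and did not change with age past the threshold (-0.28 in WT, limma adjusted p = 0.121). *Ogn*, first at P30, had r = 0.27 at P1. The probes that led at P1 were others, headed by *Tspan6* (r = 0.99 at P1 and -0.11 at P30) and *Psma7* (0.99 and -0.36), and the 5% mark there was as high as 0.78.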

How the data were processed

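The authors deposited, for each of 25697 probes and 16 arrays, a mean bead intensity on a linear scale with no normalization across arrays, a p-value for detection, the bead standard error as an intensity, and the count of beads. The submitters' processing notes name lumi and limma. The study's methods give log2 values and quantile normalization. Whether background was subtracted is not given in the sources used here.

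Intensities were taken to log2 with no constant added and quantile normalized over the 16 arrays (R 4.3.3, limma 3.58.1). A probe entered a fit if its detection p was under 0.05 on 4 or more of the arrays fitted. Tests were two-sided, from lmFit and eBayes, and p-values were adjusted by Benjamini-Hochberg across the whole table. Genotype was fitted within each age on 8 arrays, and age and genotype by age in 1 fit of 16 arrays. Each array is 1 sample, and the tests set a difference between groups against the spread between arrays of a group, as moderated by eBayes. The lead probe of a gene has the highest mean signal among probes detected on at least 4 of 16 arrays. Probes were named through Entrez numbers, accessions or symbols, matched to RefSeq for 25376 probes.

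The members and marker lists were chosen with earlier results of these data known. Genes named beside the members are the 2 largest rises and falls of a list by age in WT, those with an unadjusted genotype p under 0.05, those most alike, and those whose level bears on a member. The alternatives were no filter or a detection p under 0.01, normexp with an offset of 16, median scaling, cyclic loess, trended robust variances, array clusters or replicate numbers as a block, other sets of arrays in the fit or in the normalization, and each array left out. Leaving out the 5 arrays of higher background, and the larger cluster of P1 arrays alone, were added after the data were seen.

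Beads limit a signal to a median standard error of 3.38% to 4.05%, and 4 arrays per group limit each comparison. On simulated data for genotype at P30, with 13413 probes, 86% of 50 probes changed by 1 on the log2 scale and 62% of 50 changed by 0.5 were called, and 0.0681% of the unchanged. The changed probes were drawn at random from all probes, whose median SD at P30 was 0.12, with noise independent between arrays. *Slc47a1* (SD 0.81), *Ptgds* (0.67), *Slc6a13* (0.41) and *Slc6a12* (0.38) spread far more, so these shares do not hold for them.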

Additional observations from a re-analysis of the deposited data

Results flagged for a closer look

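In each group of 4 arrays a sample was marked when its distance to the nearest other array, as a share of the group's range, was above Dixon's critical value for 4 samples. Of 40 combinations of gene and group 2 were marked, and chance alone would mark about 2. *Dcn* in WT replicate 4 at P1 read 10.83 against 10.46 on the nearest array, a share of 0.850. *Lum* in *Mef2c*-het replicate 7 at P30 read 8.10 against 7.88, a share of 0.981, and this is an array of higher background.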

How the results depend on the processing

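No member was called for genotype, or for genotype by age, under any alternative run. The count of all probes called for genotype at P30 was 1 and became 0 under normexp, median scaling, cyclic loess, the replicate block and without the 5 arrays of higher background, with 0 to 1 when single arrays were left out. At P1 the count was 0 and became 1 with array clusters as a block, 3 with the replicate block, 2 with all 16 arrays in the fit and 1 without the 5 arrays, and for genotype by age it became 1 with array clusters as a block. By age, 3 to 6 members in WT and 5 to 8 in *Mef2c*-het were called when single arrays were left out. The 1 pair of members past adjustment at P1 became 0 with Spearman's rho, without the 2 farthest arrays and on the larger cluster alone.

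Signs that turned belonged to changes that were not called. Without the 5 arrays, *Slc47a1* (-0.11), *Slc6a13* (-0.11) and *Slc6a12* (-0.051) turned for genotype at P30, and *Ptgds* (-0.15), *Slc47a1* (-0.18), *Slc6a13* (-0.18), *Slc6a12* (-0.13), *Igfbp2* (-0.22) and *Dcn* (-0.072) for genotype by age. *Slc6a13* at P1 became -0.015 under the replicate block, and *Lum* by age in WT -0.041 under median scaling and -0.019 with array clusters as a block. Leaving out single arrays, the genotype change at P1 ran from -0.069 to 0.57 for *Ptgds*, -0.092 to 0.13 for *Slc6a13*, -0.046 to 0.21 for *Slc6a12*, -0.023 to 0.21 for *Dcn*, -0.036 to 0.14 for *Col1a1* and -0.054 to 0.22 for *Col3a1*. The change with age in WT ran from -0.056 to 0.24 for *Slc6a12* and -0.019 to 0.050 for *Lum*. The genotype by age change ran from -0.10 to 0.55 for *Ptgds*, -0.054 to 0.11 for *Igfbp2*, -0.049 to 0.0044 for *Col1a2* and -0.20 to 0.076 for *Col3a1*. The cause of these shifts was not tested.

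Same-numbered mice of the 2 genotypes did not deviate together throughout (r = 0.09, 0.40 and 0.83 at P1 and 0.19, -0.53 and 0.71 at P30), so the replicate number was not taken as a pairing. Signal over background limited *Slc47a1*, *Col1a2* and *Col3a1*, and normexp gave *Slc47a1* and *Col3a1* larger changes with age in both genotypes.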
